A study of Homo sapiens with 6 samples.

Results

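The mitosis genes described here are 44 genes that drive, check or complete cell division, picked by gene name from the 58938 entries of an expression table, and they cover G2/M cyclins, mitotic kinases, checkpoint, centromere, spindle and condensin genes. Kinesins were left aside, apart from CENPE, which is itself a kinesin-family motor. Of the 44, 43 were among the 13036 genes tested, and the exception was PRC1, whose mean of 0.305 FPKM lay below the minimum of 1 FPKM. FPKM, fragments per kilobase of gene scaled by library, is a level per unit of gene length, so levels can be compared between genes. After MST3 overexpression none of the 43 mitosis genes passed the test, with adjusted p-values between 0.719 and 0.992. Over all 13036 genes tested only 1 passed (0.00767%), STK24, which encodes MST3 itself. Their differences on the log2(FPKM + 1) scale ran from -0.23 to 0.30 with a median of -0.096, against a median of -0.014 over all genes tested. Of the 43, 37 were lower on average in the MST3 libraries and 6 were higher, where 53.4% of all genes tested were lower. The mitosis genes had a median GC content of 43.2%, and of all tested genes at or below that value 75.9% were lower. With GC and length trends removed from each library, a step chosen after seeing the data, 31 of the 43 were lower, with a median of -0.042.

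Mitosis is set off by cyclin-dependent kinase 1, which needs a cyclin partner and removal of inhibitory phosphates by CDC25 phosphatases. The spindle checkpoint holds back the anaphase-promoting complex until every kinetochore is attached to microtubules, and separase then cuts the cohesin that holds sister chromatids together. Many mitosis genes are transcribed mainly in G2 and M phase, repressed in resting cells by the DREAM complex and activated by B-MYB and FOXM1, so the bulk level of their mRNAs in a dividing culture depends in part on how many cells are in G2 and M. In bulk RNA, fewer cells in these phases and less RNA per cell cannot be told apart.

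The study used HCT116, an established human colorectal cancer cell line, in 2 groups of 3 RNA sequencing libraries. One group carried a plasmid that overexpresses MST3, the STE20-family kinase encoded by STK24, and the other carried a vector and is labelled wild type in genotype. Both were transfected by lipofection at 60% density, received fresh medium after 6 hours, and gave RNA after 30 hours. RNA came from whole cultures, and the sources used here give neither the promoter of the plasmid nor the share of cells that took it up. The replicate numbers are not said to mark separate cultures. A p-value here therefore only sets a group difference against the spread between these libraries, and that spread may be technical.

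STK24 had 63.7, 72.2 and 76.0 FPKM in MST3 replicates 1 to 3, against 17.1, 17.4 and 17.4 FPKM in vector replicates 1 to 3, a ratio of means of 4.08. It was the 1 gene of 13036 (0.00767%) with an adjusted p under 0.05 in limma (log2 difference 1.97, SE 0.092, adjusted p = 0.000998). The exact permutation p of 0.1 is the smallest that 3 libraries against 3 can give. Reads assigned to genes, recovered from the FPKM steps, came to 15289213 to 17209736 per MST3 library and 17296201 to 17708029 per vector library. Markers of a colon epithelial line (EPCAM, KRT8, KRT18, KRT19, CDH1, CDX2, CDX1 and VIL1) summed to 1530 to 1939 FPKM in MST3 and 1614 to 1664 FPKM in vector libraries, although CDX1 was listed at 0 in all 6 and VIL1 reached at most 0.0331 FPKM. Sums of 5 fibroblast markers were 3.94 to 5.00 FPKM in MST3 and 3.80 to 4.63 FPKM in vector libraries, those of 3 endothelial markers 0.182 to 0.270 FPKM in MST3 and 0.132 to 0.233 FPKM in vector libraries, and those of 4 leukocyte markers 0.0533 to 0.118 FPKM in MST3 and 0 to 0.332 FPKM in vector libraries. Among the fibroblast markers, COL1A1 had 3.72 to 4.97 FPKM over the 6 libraries, while COL1A2, COL3A1, DCN and LUM reached at most 0.0318 FPKM.

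The promoters of the mitosis genes share short sequences that the choice by name did not use. Promoter windows from RefSeq, spanning 250 bases before to 50 bases after the gene start on GRCh38.p14, were found for 38 of the 44. The cell cycle genes homology region (CHR), at which the DREAM complex is known to bind, was searched as TTTGAA or TTCGAA on both strands, and the NF-Y box as CCAAT on both strands. A CHR lay in a window of 32 of the 38 genes (84.2%), against 5336 of the 27305 genes with a window (19.5%) and 14.6% of the 8904 such genes that were also tested for expression. An NF-Y box lay in 29 of the 38 (76.3%), against 39.7% of all genes with a window and 43.3% of those tested. Both motifs stood in 1 window for 25 of the 38 (65.8%), against 7.85% of all and 6.23% of those tested. The TATA box, searched as TATAAA on both strands, was found in 2 of the 38 (5.26%), against 14.0% of all and 7.54% of those tested. Among genes with a single window, a CHR was found for 26 of 30 mitosis genes (86.7%) and for 17.2% of all.

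The stretches below are the 120 bases before the gene start for 10 of the mitosis genes followed most closely in the expression results, namely those with a whole CHR in that stretch. Each runs 5′ to 3′ on the strand of the gene, capitals mark CHR and NF-Y matches, and the last letter is the base just before the start. The starts are those of RefSeq, and the earliest start of the same gene in GENCODE 29 can lie before or inside the stretch, as in CDK1 and INCENP.
CDK1 (chr10:60778358-60778477, plus strand): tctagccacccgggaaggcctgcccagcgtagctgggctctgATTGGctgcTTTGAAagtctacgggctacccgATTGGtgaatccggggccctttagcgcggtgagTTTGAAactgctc
CDC25C (chr5:138331805-138331924, minus strand): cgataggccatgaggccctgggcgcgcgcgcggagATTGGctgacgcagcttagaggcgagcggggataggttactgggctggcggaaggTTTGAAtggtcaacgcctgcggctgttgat
PLK1 (chr16:23678769-23678888, plus strand): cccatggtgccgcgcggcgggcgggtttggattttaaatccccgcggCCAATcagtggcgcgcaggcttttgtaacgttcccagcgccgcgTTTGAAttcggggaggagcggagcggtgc
INCENP (chr11:62123891-62124010, plus strand): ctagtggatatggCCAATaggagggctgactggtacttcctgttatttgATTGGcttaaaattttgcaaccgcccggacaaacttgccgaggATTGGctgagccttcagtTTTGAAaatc
CDCA8 (chr1:37692396-37692515, plus strand): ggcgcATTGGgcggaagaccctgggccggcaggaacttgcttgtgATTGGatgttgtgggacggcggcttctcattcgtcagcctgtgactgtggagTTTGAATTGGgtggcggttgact
BUB1B (chr15:40160949-40161068, plus strand): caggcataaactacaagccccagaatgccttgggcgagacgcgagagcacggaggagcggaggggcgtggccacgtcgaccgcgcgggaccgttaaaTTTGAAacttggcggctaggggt
CDC20 (chr1:43358861-43358980, plus strand): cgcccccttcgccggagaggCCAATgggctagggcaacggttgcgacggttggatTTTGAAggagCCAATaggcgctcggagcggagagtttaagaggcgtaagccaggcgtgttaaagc
CKAP5 (chr11:46846281-46846400, minus strand): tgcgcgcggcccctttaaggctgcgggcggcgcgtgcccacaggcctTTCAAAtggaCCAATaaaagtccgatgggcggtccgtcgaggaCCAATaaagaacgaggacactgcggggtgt
ANLN (chr7:36389742-36389861, plus strand): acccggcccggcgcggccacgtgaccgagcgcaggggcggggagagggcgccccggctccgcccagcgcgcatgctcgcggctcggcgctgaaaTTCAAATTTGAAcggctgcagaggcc
MKI67 (chr10:128126424-128126543, minus strand): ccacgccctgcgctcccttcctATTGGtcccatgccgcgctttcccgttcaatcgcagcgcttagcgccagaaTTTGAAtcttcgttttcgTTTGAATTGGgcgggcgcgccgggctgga
In ANLN, CDCA8, BUB1B, PLK1, MKI67 and CDC25C a CHR began 20 to 30 bases before the start, in INCENP and CDK1 10 and 13 bases before it, and in CDC20 and CKAP5 65 and 73 bases before it. In CDK1, CDC20 and MKI67 an NF-Y box stood on each side of a CHR, and in CKAP5 both boxes followed the CHR. In CDCA8 and MKI67 the last base of a CHR is also the first base of an NF-Y match, so the 2 matches there share 1 base. A match is a description of the letters and not a binding site.

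**Figure D1:**
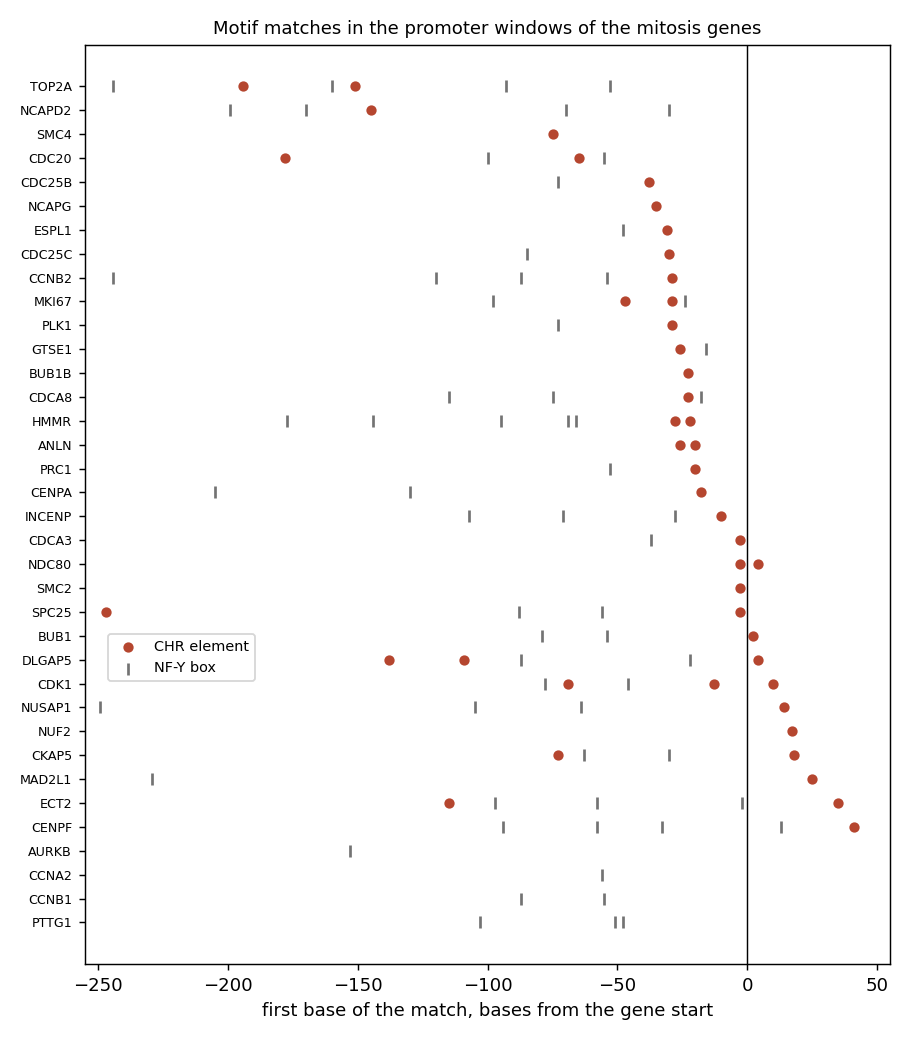
CHR matches (red points) and NF-Y matches (grey ticks) by the position of their first base relative to the gene start, 1 row per gene and, for genes with several windows, the window whose CHR lies nearest the start. In 28 of the 32 genes with a CHR the nearest one began within 50 bases of the start. CENPE and CKAP2, which had a window with neither motif, have no row.

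Expression differences were set beside the motif. The 31 tested genes with a CHR match had a median log2 difference of -0.096, with 26 lower in MST3 libraries. The 6 with a window but no match (AURKB, CCNA2, CCNB1, CENPE, CKAP2 and PTTG1) had a median of -0.089, with all 6 lower. A CHR whose letters depart from the searched sequences, or that lies outside the window, would not be found, so these 6 may still hold one. No test was made between these groups of genes.

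HCT116 cultures of both groups expressed most mitosis genes above the level of a typical gene. Mean levels over the 6 libraries ran from 0.305 FPKM for PRC1 to 152.5 FPKM for CDC20, with a median of 23.7 FPKM against 5.81 FPKM over all genes tested. Of the 44, 37 had a mean of at least 10 FPKM and 41 lay above the median of all genes tested. The lowest were PRC1, which bundles antiparallel microtubules at the spindle midzone, and NUSAP1, which binds spindle microtubules.

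**Figure D2:**
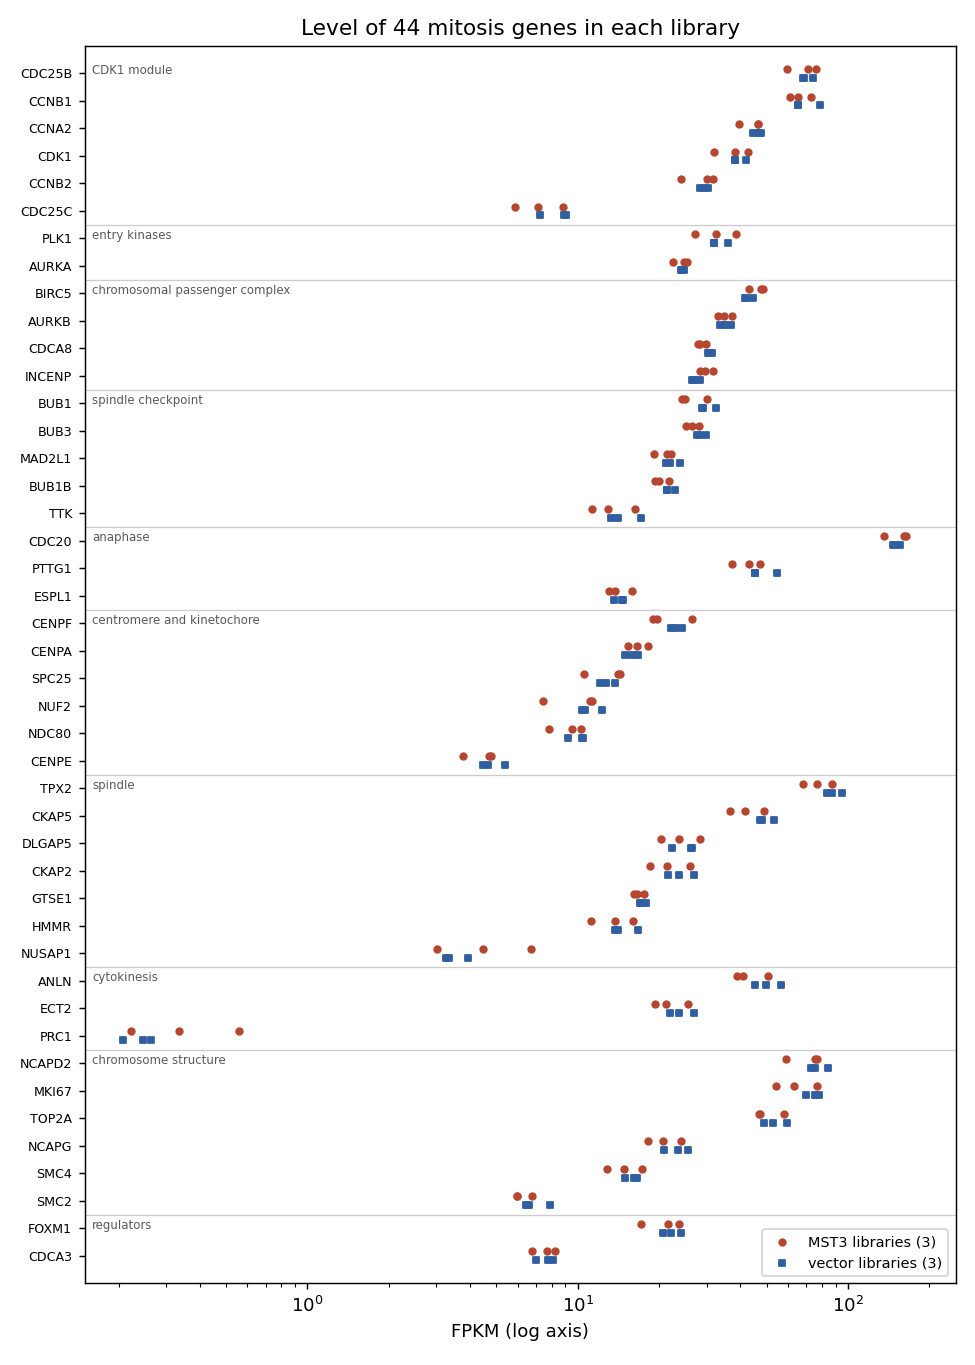
Level of each of the 44 mitosis genes in the 6 libraries, in FPKM on a log axis, with 1 row per gene, MST3 libraries as circles and vector libraries as squares, and the genes ordered by role and then by level. The ranges of the 2 groups overlap in all but INCENP and CDCA8 of the 43 tested mitosis genes, where 11.9% of all genes tested had no overlap. Levels reach 152.5 FPKM, and PRC1 and NUSAP1 are the 2 lowest.

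The 6 genes of the CDK1 module were all lower on average in the MST3 libraries, with log2 differences of -0.20 to -0.038, and none passed the test. CDK1 (ENSG00000170312, chr10:60778331-60794852, plus strand), the kinase that starts mitosis, had 38.2, 42.7 and 31.9 FPKM in MST3 replicates 1 to 3, against 38.3, 41.9 and 38.3 FPKM in vector replicates 1 to 3. MST3 replicate 3 was the lowest of the 6 libraries, MST3 replicate 2 the highest, and the groups overlapped. Its means of 37.6 ± 5.41 FPKM in MST3 and 39.5 ± 2.09 FPKM in vector libraries (SD, n = 3 each) differed by -0.079 (95% interval -0.36 to 0.20, SE 0.12), at an unadjusted p of 0.526 and an adjusted p of 0.843. CCNB1, cyclin B1, the partner that brings CDK1 to its mitotic activity, had 61.0, 72.9 and 65.6 FPKM in MST3 replicates 1 to 3, against 65.2, 78.7 and 65.6 FPKM in vector replicates 1 to 3. Vector replicate 2 was the highest and MST3 replicate 1 the lowest, and the difference was -0.068 (95% interval -0.34 to 0.20, adjusted p = 0.859). CCNA2, cyclin A2, which acts in S phase and at mitotic entry, had 39.5, 46.6 and 46.3 FPKM in MST3 replicates 1 to 3, against 44.4, 47.9 and 46.7 FPKM in vector replicates 1 to 3. MST3 replicate 1 stood below the other 5 libraries, and the difference was -0.072 (95% interval -0.30 to 0.15, adjusted p = 0.817). CDC25C, a phosphatase that removes inhibitory phosphates from CDK1, was the lowest of the module at 7.10, 8.85 and 5.86 FPKM in MST3 replicates 1 to 3, against 7.28, 9.02 and 8.89 FPKM in vector replicates 1 to 3. MST3 replicates 1 and 3 and vector replicate 1 were low, the groups overlapped, and the difference was -0.20 (95% interval -0.54 to 0.15, adjusted p = 0.726). The remaining pair were CCNB2, cyclin B2, with means of 28.7 ± 4.10 FPKM in MST3 and 29.4 ± 1.01 FPKM in vector libraries, and CDC25B, a related phosphatase, with means of 69.0 ± 8.78 FPKM in MST3 and 70.5 ± 3.23 FPKM in vector libraries.

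Of the kinases of mitotic entry, PLK1 matures centrosomes and helps activate CDK1, and AURKA builds the bipolar spindle. PLK1 (ENSG00000166851, chr16:23677656-23690367, plus strand) had 27.3, 32.5 and 38.4 FPKM in MST3 replicates 1 to 3, against 31.9, 35.9 and 32.0 FPKM in vector replicates 1 to 3. The MST3 libraries held both the lowest and the highest value, and the vector libraries lay between them. The difference was -0.037 (95% interval -0.35 to 0.27, SE 0.13), at an unadjusted p of 0.788 and an adjusted p of 0.939. AURKA had 24.7, 25.5 and 22.5 FPKM in MST3 replicates 1 to 3, against 24.4, 24.1 and 24.7 FPKM in vector replicates 1 to 3, so that all 6 libraries lay within a narrow range around the same level. Its difference was -0.0095 (95% interval -0.20 to 0.18, adjusted p = 0.977).

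The chromosomal passenger complex, which corrects faulty attachments and later guides cytokinesis, held both mitosis genes whose groups did not overlap, and they pointed in opposite directions. INCENP (ENSG00000149503, chr11:62123973-62153163, plus strand), the scaffold of the complex, had 29.6, 28.4 and 31.6 FPKM in MST3 replicates 1 to 3, against 28.3, 26.6 and 27.0 FPKM in vector replicates 1 to 3. Every MST3 library was above every vector library, the difference was 0.12 (95% interval -0.065 to 0.31, SE 0.081), at an unadjusted p of 0.165 and an adjusted p of 0.719, and the exact permutation p = 0.1 was the smallest possible. CDCA8 (ENSG00000134690, chr1:37692418-37709719, plus strand), borealin, which helps the complex bind centromeres, had 29.9, 27.9 and 28.3 FPKM in MST3 replicates 1 to 3, against 30.3, 31.5 and 30.6 FPKM in vector replicates 1 to 3. Here every MST3 library was below every vector library, the difference was -0.098 (95% interval -0.28 to 0.081, SE 0.076), at an unadjusted p of 0.237 and an adjusted p of 0.726, and the exact permutation p = 0.1 was again the smallest possible. Groups without overlap were found for 2 of 43 mitosis genes, where 11.9% of all genes tested had them. AURKB, the kinase of the complex, had 33.0, 34.8 and 37.4 FPKM in MST3 replicates 1 to 3, against 35.0, 33.7 and 37.0 FPKM in vector replicates 1 to 3. The lowest and the highest library were both in the MST3 group, and the difference was -0.0076 (95% interval -0.21 to 0.20, adjusted p = 0.981). BIRC5, survivin, averaged 46.4 ± 3.02 FPKM in MST3 and 42.7 ± 1.72 FPKM in vector libraries, with MST3 replicate 2 inside the vector range and the other MST3 libraries above it.

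All 5 spindle checkpoint genes were lower on average in MST3 libraries, with log2 differences of -0.18 to -0.095, and none passed the test. BUB1 (ENSG00000169679, chr2:110637698-110678114, minus strand), a kinase that marks unattached kinetochores, had 24.4, 30.1 and 24.9 FPKM in MST3 replicates 1 to 3, against 28.8, 32.4 and 29.02 FPKM in vector replicates 1 to 3. MST3 replicates 1 and 3 lay below all 3 vector libraries and MST3 replicate 2 lay within them. The difference was -0.18 (95% interval -0.44 to 0.070, SE 0.11), at an unadjusted p of 0.131 and an adjusted p of 0.719. BUB1B, which encodes BUBR1, a part of the complex that inhibits the anaphase-promoting complex, had 19.9, 21.7 and 19.4 FPKM in MST3 replicates 1 to 3, against 21.3, 22.8 and 21.5 FPKM in vector replicates 1 to 3. MAD2L1, which encodes MAD2, another part of that complex, had 22.1, 21.3 and 19.1 FPKM in MST3 replicates 1 to 3, against 21.95, 23.9 and 21.2 FPKM in vector replicates 1 to 3. For both, MST3 replicate 3 was the lowest and vector replicate 2 the highest library, and the differences were -0.10 (95% interval -0.29 to 0.091, adjusted p = 0.730) and -0.096 (95% interval -0.31 to 0.12, adjusted p = 0.759). BUB3, the partner of BUB1 and BUBR1, averaged 26.7 ± 1.51 FPKM in MST3 and 28.5 ± 1.25 FPKM in vector libraries, and TTK, the kinase also called MPS1 that starts checkpoint signalling, averaged 13.5 ± 2.51 FPKM in MST3 and 14.9 ± 2.04 FPKM in vector libraries.

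Among the genes of anaphase onset, CDC20 (ENSG00000117399, chr1:43358955-43363203, plus strand), the checkpoint's target and activator of the anaphase-promoting complex, was the most abundant mitosis gene. It had 136, 161 and 164 FPKM in MST3 replicates 1 to 3, against 147, 156 and 149.8 FPKM in vector replicates 1 to 3, with the lowest and the highest values both in MST3 libraries and the 3 vector libraries between them. Its difference was 0.026 (95% interval -0.21 to 0.27, SE 0.10), at an unadjusted p of 0.809 and an adjusted p of 0.945. PTTG1, securin, which holds separase inactive, had 43.1, 47.4 and 37.3 FPKM in MST3 replicates 1 to 3, against 45.1, 54.6 and 45.3 FPKM in vector replicates 1 to 3. Vector replicate 2 was the highest and MST3 replicate 3 the lowest, the groups overlapped, and the difference was -0.18 (95% interval -0.47 to 0.11, adjusted p = 0.719). ESPL1, separase itself, averaged 14.2 ± 1.501 FPKM in MST3 and 14.3 ± 0.618 FPKM in vector libraries.

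The 6 centromere and kinetochore genes had a median log2 difference of -0.10, with 4 lower and CENPA and SPC25 higher in MST3 libraries, none past the test. CENPE, the motor that moves chromosomes to the spindle equator, had 4.70, 4.77 and 3.77 FPKM in MST3 replicates 1 to 3, against 4.64, 5.36 and 4.45 FPKM in vector replicates 1 to 3. MST3 replicate 3 was the lowest library and vector replicate 2 the highest, and the difference was -0.11 (95% interval -0.36 to 0.15, adjusted p = 0.767). CENPF, a large kinetochore protein of G2 and M, had 19.0, 26.4 and 19.7 FPKM in MST3 replicates 1 to 3, against 22.1, 24.3 and 22.9 FPKM in vector replicates 1 to 3. The MST3 libraries spanned the vector libraries on both sides, and the difference was -0.10 (95% interval -0.41 to 0.21, adjusted p = 0.816). NUF2, NDC80 and SPC25 encode 3 subunits of the NDC80 complex, the kinetochore's grip on microtubules, and all 3 were lowest in MST3 replicate 3. NUF2 had 11.3, 11.1 and 7.44 FPKM in MST3 replicates 1 to 3 and 10.4, 12.3 and 10.6 FPKM in vector replicates 1 to 3. NDC80 had 9.54, 10.3 and 7.81 FPKM in MST3 replicates 1 to 3 and 9.18, 10.4 and 10.3 FPKM in vector replicates 1 to 3, and SPC25 had 14.3, 14.0 and 10.6 FPKM in MST3 replicates 1 to 3 and 12.7, 13.7 and 12.1 FPKM in vector replicates 1 to 3. For NUF2 and NDC80 the other MST3 libraries lay inside the vector range, and for SPC25 they lay above it. CENPA, the histone H3 variant that marks centromeres, averaged 16.7 ± 1.42 FPKM in MST3 and 15.8 ± 0.895 FPKM in vector libraries.

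The spindle genes held the mitosis genes with the largest difference in each direction. CKAP5 (ENSG00000175216, chr11:46743048-46846308, minus strand), which encodes chTOG, a protein that speeds microtubule growth, had 36.7, 48.8 and 41.7 FPKM in MST3 replicates 1 to 3, against 47.3, 53.1 and 48.1 FPKM in vector replicates 1 to 3. MST3 replicates 1 and 3 were below all vector libraries and MST3 replicate 2 was inside their range. Its means were 42.4 ± 6.09 FPKM in MST3 and 49.5 ± 3.15 FPKM in vector libraries, and the difference was -0.23 (95% interval -0.51 to 0.056, SE 0.12), at an unadjusted p of 0.1002 and an adjusted p of 0.719. No other mitosis gene had a smaller unadjusted p. TPX2 (ENSG00000088325, chr20:31739271-31801805, plus strand), which activates AURKA on spindle microtubules, had 68.5, 87.0 and 76.9 FPKM in MST3 replicates 1 to 3, against 83.7, 95.2 and 87.5 FPKM in vector replicates 1 to 3. Again MST3 replicates 1 and 3 were below the vector range, and the difference was -0.20 (95% interval -0.46 to 0.064, SE 0.11), at an unadjusted p of 0.117 and an adjusted p of 0.719. NUSAP1 (ENSG00000137804, chr15:41332694-41381050, plus strand) had 6.74, 4.44 and 3.02 FPKM in MST3 replicates 1 to 3, against 3.27, 3.94 and 3.35 FPKM in vector replicates 1 to 3. MST3 replicate 1 stood far above the other 5 libraries and MST3 replicate 3 was the lowest. The difference was 0.30 (95% interval -0.22 to 0.81, SE 0.22), at an unadjusted p of 0.217 and an adjusted p of 0.726, the 1 interval among the mitosis genes that reached beyond a 1.5-fold change, and it was 0.055 without MST3 replicate 1. HMMR averaged 13.6 ± 2.46 FPKM in MST3 and 14.9 ± 1.66 FPKM in vector libraries, DLGAP5 24.2 ± 4.03 FPKM in MST3 and 25.0 ± 2.35 FPKM in vector libraries, and CKAP2 22.05 ± 3.80 FPKM in MST3 and 24.1 ± 2.76 FPKM in vector libraries. These 3 genes encode microtubule-associated proteins of the spindle, and all 3 were lowest in MST3 replicate 3. GTSE1, a microtubule-associated protein of G2 and M, averaged 16.8 ± 0.712 FPKM in MST3 and 17.4 ± 0.514 FPKM in vector libraries.

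For cytokinesis, ANLN (ENSG00000011426, chr7:36389806-36453791, plus strand), the scaffold of the contractile ring, had 38.9, 50.7 and 40.9 FPKM in MST3 replicates 1 to 3, against 45.4, 56.6 and 49.6 FPKM in vector replicates 1 to 3. Only MST3 replicate 2 was inside the vector range, and the other MST3 libraries were below it. The difference was -0.22 (95% interval -0.52 to 0.092, SE 0.13), at an unadjusted p of 0.142 and an adjusted p of 0.719. ECT2, the exchange factor that switches on RhoA at the division plane, averaged 22.1 ± 3.23 FPKM in MST3 and 24.2 ± 2.52 FPKM in vector libraries. PRC1 had 0.556, 0.333 and 0.222 FPKM in MST3 replicates 1 to 3, against 0.247, 0.264 and 0.207 FPKM in vector replicates 1 to 3, values that rest on 20 to 49 reads per library, and it was not tested.

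The low levels of PRC1 and NUSAP1 stand beside an overlap in the annotation. Of the exon length of PRC1, 57.6% is shared on the same strand with AC068831.7, and 7.35% lies opposite PRC1-AS1, most of it within the shared part (58.4% in all). AC068831.7 had 0.903, 1.12 and 0.759 FPKM in MST3 replicates 1 to 3, against 0.987, 0.971 and 1.02 FPKM in vector replicates 1 to 3. Of the exon length of NUSAP1, 62.2% is shared on the same strand with AC087721.2, which was listed at 0 in all 6 libraries. The sources used here do not say how reads in shared exons were counted, and the part of the overlap in these 2 levels was not tested. Overlap with a gene on the opposite strand covered 33.1% of NCAPG (LCORL, at most 2.43 FPKM), 25.6% of SMC4 (TRIM59 and IFT80, with TRIM59 at most 3.74 FPKM) and 15.9% of FOXM1 (ITFG2, at most 1.61 FPKM). The strand setting of the counting is not given, so reads of such partners cannot be told apart. PTTG2, AURKAP1 and MKI67P1, which share names with PTTG1, AURKA and MKI67, reached at most 0.253, 0.103 and 0.129 FPKM in any library. Their sequences were not compared, and the sources used here do not say how reads that match several genes were counted.

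All 6 genes of chromosome structure were lower on average in MST3 libraries, with log2 differences of -0.21 to -0.084, and none passed the test. MKI67 (ENSG00000148773, chr10:128096659-128126385, minus strand), the Ki-67 protein that coats mitotic chromosomes and is the common marker of dividing cells, had 54.3, 77.1 and 63.1 FPKM in MST3 replicates 1 to 3, against 70.0, 77.9 and 75.4 FPKM in vector replicates 1 to 3. MST3 replicates 1 and 3 were below all vector libraries and MST3 replicate 2 was inside their range, on 11087 to 17152 reads per library. Its means were 64.8 ± 11.5 FPKM in MST3 and 74.5 ± 4.07 FPKM in vector libraries, and the difference was -0.21 (95% interval -0.53 to 0.11, SE 0.14), at an unadjusted p of 0.163 and an adjusted p of 0.719. TOP2A, the topoisomerase that untangles sister chromatids, had 47.2, 58.1 and 46.8 FPKM in MST3 replicates 1 to 3, against 48.9, 59.5 and 52.7 FPKM in vector replicates 1 to 3. The lowest libraries were MST3 replicates 1 and 3, the highest was vector replicate 2, and the difference was -0.084 (95% interval -0.37 to 0.20, adjusted p = 0.836). SMC2, an ATPase core subunit of both condensins, had 5.96, 6.78 and 5.96 FPKM in MST3 replicates 1 to 3, against 6.59, 7.87 and 6.45 FPKM in vector replicates 1 to 3. The same 2 MST3 libraries were the lowest, the groups overlapped through MST3 replicate 2, and the difference was -0.14 (95% interval -0.37 to 0.091, adjusted p = 0.719). SMC4, its partner, averaged 15.0 ± 2.22 FPKM in MST3 and 15.9 ± 0.825 FPKM in vector libraries. The condensin I subunits NCAPG and NCAPD2 averaged 21.0 ± 2.93 FPKM in MST3 and 23.3 ± 2.41 FPKM in vector libraries, and 70.5 ± 9.85 FPKM in MST3 and 77.7 ± 5.76 FPKM in vector libraries.

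FOXM1, the transcription factor that activates many G2 and M genes, had 17.1, 21.6 and 23.8 FPKM in MST3 replicates 1 to 3, against 22.1, 20.7 and 24.1 FPKM in vector replicates 1 to 3. MST3 replicate 1 was below the other 5 libraries, the groups overlapped, and the difference was -0.10 (95% interval -0.41 to 0.20, adjusted p = 0.812). CDCA3, which takes part in the destruction of the CDK1 inhibitor WEE1, averaged 7.59 ± 0.741 FPKM in MST3 and 7.63 ± 0.536 FPKM in vector libraries.

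**Figure D3:**
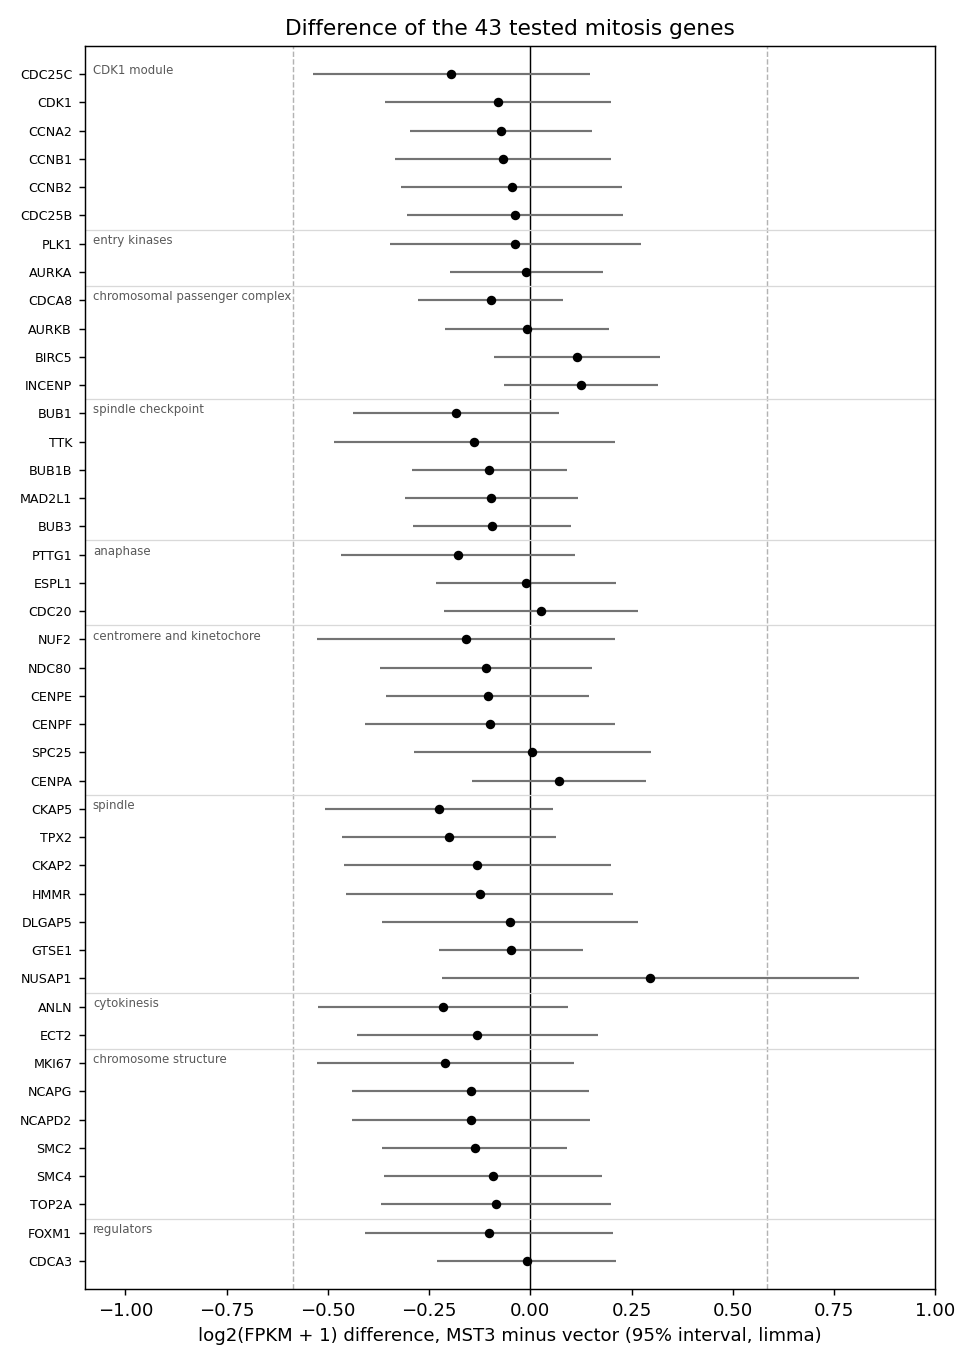
Difference MST3 minus vector of the 43 tested mitosis genes on the log2(FPKM + 1) scale, as points with 95% intervals from limma, arranged by role. All 43 intervals include 0, and all but that of NUSAP1 lie within a 1.5-fold change (0.58 on the log2 scale, dashed lines).

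The 95% intervals give the range of differences around each estimate, for the spread between these libraries and on the log2(FPKM + 1) scale, which understates changes of the members with low levels. For 42 of the 43 mitosis genes (97.7%) the whole interval on that scale lay within a 1.5-fold change in either direction, against 82.4% of all genes tested. For all 43 it lay within a 2-fold change, against 94.2% of all genes tested. With limma voom on the recovered reads, 0 of 43 mitosis genes had an unadjusted p under 0.05, where 6.68% of all genes tested passed. In limma on log2(FPKM + 1) there were also 0 of 43, where 5.38% of all genes tested passed. That count became 7 of 43 (16.3%) when MST3 replicate 2 was left out, where 19.6% of all genes tested passed, and 1 of 43 when MST3 replicate 3 was left out, where 6.67% of all passed, with 0 called after adjustment each time. Without MST3 replicates 1, 2 and 3 in turn, the median of the mitosis genes was -0.086, -0.15 and -0.043. Leaving out vector replicates 1, 2 and 3 in turn gave -0.12, -0.049 and -0.10. Over all genes tested the medians were -0.0044, -0.018 and -0.020 in the first set of fits. In the second set they were -0.015, -0.00995 and -0.017. The median ratio of mean FPKM, MST3 over vector, was 0.936 over the 43 genes.

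Libraries of the same group differed from each other in most mitosis genes. Of the 43, 21 had their lowest value of all 6 libraries in MST3 replicate 3 and 18 in MST3 replicate 1, while 25 had their highest in vector replicate 2. Over all genes tested, 24.4% were lowest in MST3 replicate 3, 27.4% lowest in MST3 replicate 1 and 23.6% highest in vector replicate 2. Within the MST3 group, replicate 2 was the highest library for 28 of the 43 genes and the lowest for 3. Over all genes tested it was the highest of that group for 37.6% and the lowest for 32.7%. Within the vector group, replicate 2 was the highest for 36 of the 43 and the lowest for 5, and it was the highest for 40.7% of all genes tested. Median deviations from each gene's mean over the 6 libraries were -0.087, 0.087 and -0.13 (log2) in MST3 replicates 1 to 3, and -0.0038, 0.12 and 0.027 in vector replicates 1 to 3. MST3 libraries also spread more widely than vector libraries, with a median coefficient of variation of 12.7% in MST3 and 6.58% in vector libraries over the mitosis genes, and of 13.6% in MST3 and 7.25% in vector libraries over all genes tested.

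The deviation of a library moved with the GC content of the gene. The mitosis genes had a median exonic GC content of 43.2%, against 48.5% over all genes tested, and a median length of 4473 bp against 4474 bp. Across the 43 genes, the correlation of deviation with GC came to -0.17, -0.61 and 0.79 for MST3 replicates 1 to 3, and to 0.24, -0.63 and -0.025 for vector replicates 1 to 3. The points of 1 library share its depth and preparation, and the same correlations over the 12933 tested genes of known GC were 0.085, -0.34 and 0.59 for MST3 replicates 1 to 3, and -0.062, -0.38 and -0.074 for vector replicates 1 to 3. Deviation also moved with gene length in MST3 replicate 1. The correlation of deviation with log2 length across the mitosis genes was -0.36, 0.081 and -0.0058 for MST3 replicates 1 to 3, and 0.15, 0.24 and 0.32 for vector replicates 1 to 3. Over the tested genes of known GC it was -0.29, 0.045 and 0.027 for MST3 replicates 1 to 3, and 0.085, 0.15 and 0.083 for vector replicates 1 to 3. MST3 replicate 1 also had reads in 27442 genes, against 25125 and 25378 in the other MST3 libraries and 25099 to 25501 in the vector libraries, and its part in these values was not tested. The 22 mitosis genes with less GC (35.3% to 43.2%) had a median deviation of -0.24 in MST3 replicate 3 and 0.19 in vector replicate 2, and the 21 with more GC had 0.026 in MST3 replicate 3 and 0.071 in vector replicate 2. The 19 mitosis genes lowest of the MST3 libraries in replicate 1, MKI67, PLK1 and CCNB1 among them, had a median GC of 47.8%, and the 21 lowest in replicate 3, CDK1 and the NDC80 subunits among them, had 40.03%.

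**Figure D4:**
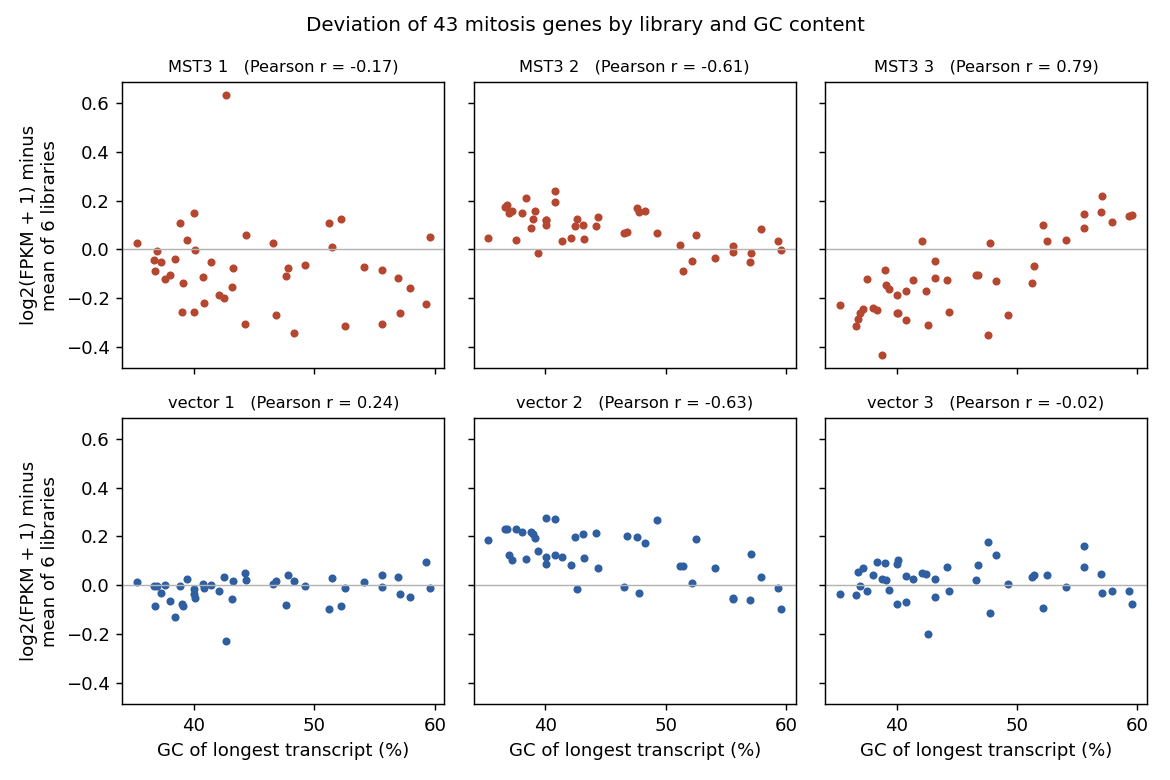
Deviation of each of the 43 tested mitosis genes from its own mean over the 6 libraries (log2 scale) against the GC content of its longest transcript in percent, with 1 panel per library and MST3 libraries first. Points climb with GC in MST3 replicate 3 (correlation 0.79) and decline in MST3 replicate 2 and vector replicate 2 (-0.61 and -0.63).

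The group difference moved with GC too. The 22 mitosis genes with less GC had a median log2 difference of -0.10, with 20 lower in MST3 libraries, and the 21 with more GC had -0.046, with 17 lower. Of all 3822 tested genes with a GC content at or below 43.2%, 75.9% were lower in MST3 libraries, with a median of -0.078, and of the 9111 above it, 44.2% were lower, with a median of 0.023. These 9111 genes reached 85.2% GC and the 21 mitosis genes with more GC reached 59.6%, so the sets were not matched for GC. After trends with GC and length were removed from each library, a step chosen after seeing the data, the median of the mitosis genes was -0.042, with 31 of 43 lower. Over all genes tested the median in that fit was 0.0054. The part that library preparation had in these values was not tested.

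**Figure D5:**
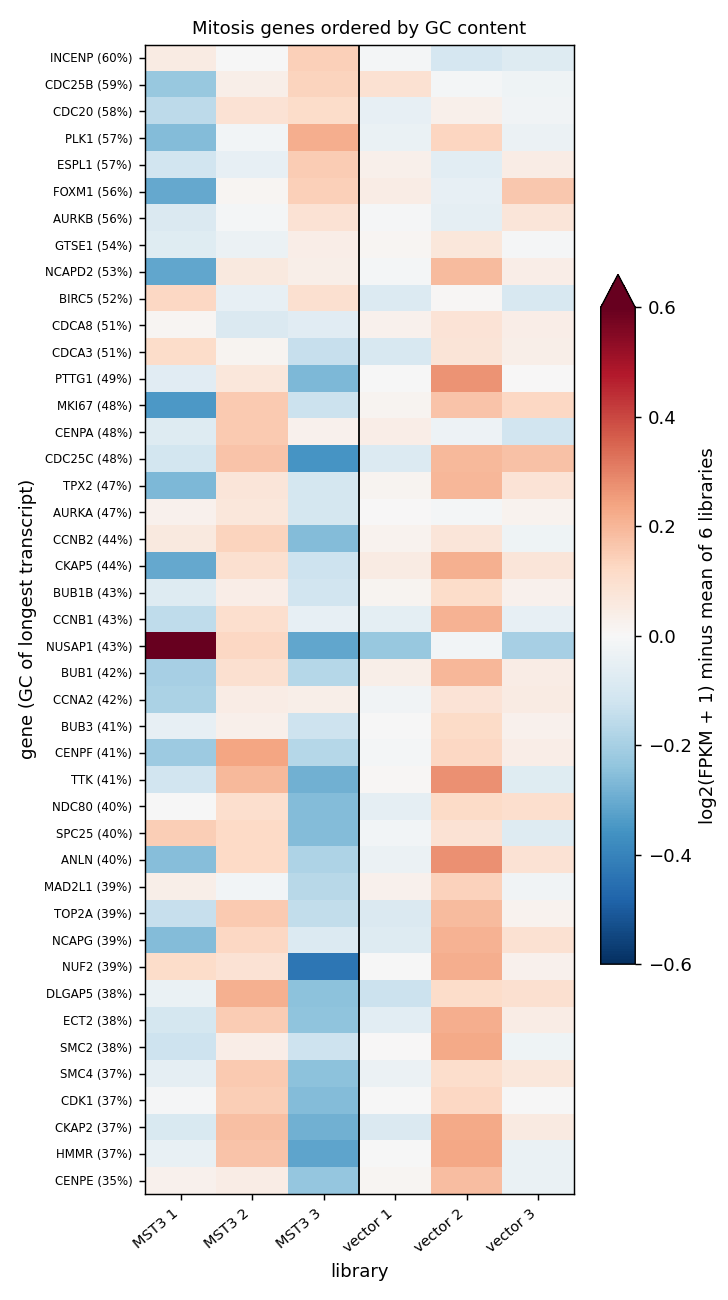
Deviation of the 43 tested mitosis genes from their mean over the 6 libraries (colour, log2 scale), with genes ordered by GC content and the MST3 libraries left of the vector libraries. Genes with less GC are low in MST3 replicate 3 and high in vector replicate 2, and the value of NUSAP1 in MST3 replicate 1, 0.63, lies beyond the end of the colour scale.

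Other genes of cell division were read from the same fit, in lists fixed by name, and none of them held a gene that passed the test. The genes named from each list are the 2 with its smallest unadjusted p. Of 53 further mitosis genes, 35 were lower and 18 higher in MST3 libraries, with a median log2 difference of -0.050. An unadjusted p under 0.05 in limma was found for 2 of the 53, where 5.38% of all genes tested had one. PSRC1, a spindle protein, averaged 11.2 FPKM in MST3 and 9.05 FPKM in vector libraries (unadjusted p = 0.030, adjusted p = 0.719). CENPM, a centromere protein, averaged 7.55 FPKM in MST3 and 6.26 FPKM in vector libraries. Of 13 kinesins, the motors left out of the gene choice, 10 were lower and 3 higher, with a median of -0.078. KIF18B, which shortens astral microtubules, averaged 16.1 FPKM in MST3 and 14.0 FPKM in vector libraries, and KIFC1, which pulls spindle poles together, 40.1 FPKM in MST3 and 36.9 FPKM in vector libraries. Of 15 genes of the anaphase-promoting complex, 9 were lower and 6 higher, with a median of -0.021. Its subunit CDC26 averaged 7.77 FPKM in MST3 and 6.43 FPKM in vector libraries, and CDC16 averaged 11.3 FPKM in MST3 and 13.1 FPKM in vector libraries.

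Of 12 brakes on CDK1, 11 were tested, and 5 were lower and 6 higher, with a median log2 difference of 0.14. Their median GC content was 51.5%, the highest of these lists. WEE1, the kinase that adds inhibitory phosphates to CDK1, averaged 11.3 FPKM in MST3 and 13.3 FPKM in vector libraries, and BTG2, an antiproliferative gene, 16.4 FPKM in MST3 and 14.1 FPKM in vector libraries. Of 15 genes of the DREAM, B-MYB and NF-Y machinery that controls transcription of mitosis genes, 14 were tested, and 10 were lower and 4 higher, with a median of -0.044. LIN52, a core subunit of that machinery, averaged 3.22 FPKM in MST3 and 4.13 FPKM in vector libraries (limma, unadjusted p = 0.020, adjusted p = 0.719). It was the 1 gene of these 14 with an unadjusted p under 0.05, where 5.38% of all genes tested had one. RBBP4, a histone-binding subunit, averaged 22.97 FPKM in MST3 and 26.03 FPKM in vector libraries. Of 38 DNA replication genes, which act a phase earlier, 22 were lower and 16 higher, with a median of -0.024. RRM2, a subunit of ribonucleotide reductase, averaged 59.4 FPKM in MST3 and 75.3 FPKM in vector libraries, and TYMS, thymidylate synthase, 23.7 FPKM in MST3 and 20.5 FPKM in vector libraries.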

How the data were processed

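Values are FPKM per gene and library, which the authors deposited as 1 table with gene lengths (column of another unit, in bp, also from the authors). Per the submitters' processing notes HISAT2 was used. The sources used here give no version, counter, strand setting or build, but all 58735 Ensembl entries have the positions of GENCODE 29 on GRCh38. FPKM times length was a whole multiple of 1 step in 100% of values within a tolerance of 0.01, which gave reads per gene.

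The members and gene lists were chosen with earlier results of these data known. Genes averaging 1 FPKM or more were put through limma 3.58.1 (R 4.3.3) as log2(FPKM + 1) values (group as the sole term, eBayes with an intensity trend), two-sided, with Benjamini-Hochberg adjustment over all 13036 genes and a threshold of 0.05. This scale understates changes of low genes. Values in every library are given for the 10 members with the smallest unadjusted p, those whose groups do not overlap and a fixed panel, and for a few others chosen after their values were seen. From each other list the 2 smallest unadjusted p are named. Motif counts used Python 3.11.15. Alternatives covered the pseudocount, filters, scaling, voom on recovered reads, trends with length and GC, a replicate block and leaving out each library.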

Additional observations from a re-analysis of the deposited data

How the results depend on the processing

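No mitosis gene was called under any of 17 alternatives, in which the smallest adjusted p over the members ranged from 0.216 to 0.999, and STK24 was called in all of them (1.91 to 2.06). The median of the mitosis genes was -0.15 to -0.042 over all alternatives and 30 to 38 of 43 were lower in MST3 libraries. Members at an unadjusted p under 0.05, 0 as reported, numbered 2 with the replicate block (10.3% of all genes tested), 1 after GC and length trends were removed (6.98% of all), 1 with both (8.88% of all), and 0 to 7 when 1 library was left out (2.29% to 19.6% of all, the highest in the same fit as the 7, which is 16.3% of members). Signs turned for AURKA and AURKB, to 0.012 and 0.014 under median-of-ratios scaling and 0.024 and 0.027 under voom, and for CDC20, to -0.031 without the length trend. With GC and length trends removed, with or without the replicate block, AURKA was 0.019, CDC20 -0.086, CENPF 0.019 and TOP2A 0.016. Leaving out 1 library gave AURKA -0.045 to 0.040, AURKB -0.053 to 0.034, CCNA2 -0.11 to 0.0040, CCNB1 -0.14 to 0.020, CDC20 -0.023 to 0.11, CDK1 -0.17 to 0.031, FOXM1 -0.20 to 0.027 and PLK1 -0.16 to 0.084, and the cause was not tested. The other 14 of 24 members given in full kept their sign, but 13 of them, all but CDCA8, moved by over 1.5 times under some alternative. With GC and length trends removed MAD2L1 was -0.00064 and CENPE -0.0099, and leaving out 1 library gave CDC25C -0.33 to -0.068 and MKI67 -0.34 to -0.091. Alternatives with the GC trend were chosen after seeing the data.

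Equal replicate numbers were not taken to pair the libraries: same-numbered deviations correlated at 0.016, 0.23 and 0.035 over all genes tested and at -0.030, 0.55 and 0.24 over the mitosis genes, and over all genes MST3 replicates 1 and 3 correlated best with another number. Of 13036 genes, 1338 had an unadjusted p under 0.05 with the replicate block and 701 without it. PRC1 and NUSAP1 had the fewest reads of the mitosis genes, at 20 to 49 and 149 to 309 reads per library, and 3 libraries per group allow no exact permutation p under 0.1.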
